A study of Arabidopsis thaliana with 36 samples.

Results

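Plastid genome transcripts were followed as the loci whose identifier starts with ATCG, the Arabidopsis code for the plastid genome, and that held at least 30 reads summed over the 36 libraries. Of 133 such loci among the 32833 in the count files, 89 met this minimum, 44 did not, and 27 of those 44 held no read at all. The 89 loci carried 3998088 reads and the loci below the minimum 172. Just inside the minimum lay ATCG00930 with 43 reads, ATCG01180 with 59 and ATCG00200 with 60. Just outside lay ATCG00060 with 27, ATCG01200 with 25 and ATCG00010 with 21. The loci were thus chosen by their summed read count, so the order of the loci by count is a description and was not tested. The count files give locus codes only, and the reference table used here names 0 of the 133 loci. For that reason the loci are given by code, and a role is stated for the few that the reference annotation describes by product. No sequences of these loci were read here.

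As background, plastids keep a small genome of their own that encodes parts of the photosynthetic complexes, of the plastid ribosome and of a bacterial-type RNA polymerase. That polymerase needs sigma factors made in the nucleus, and a nuclear-encoded phage-type polymerase works beside it. Most proteins of the same complexes are encoded in the nucleus and imported. Stable plastid messages usually end in a stem-loop without a poly(A) tail, whereas A-rich tails are added to cleaved plastid RNA and mark it for breakdown. The libraries here were primed on poly(A) and read 1 tag near the 3' end of an RNA (QuantSeq 3' mRNA-Seq, forward kit), so a plastid tag comes from a tailed RNA or an A-rich stretch and is not a plain measure of how much of a plastid message a cell holds. The plastid genome also carries a large inverted repeat, and a read from a repeated stretch aligns at more than 1 place and is not assigned to a locus. Which of the loci lie there was not looked up.

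The 36 libraries came from hypocotyls of Arabidopsis seedlings in 12 groups of 3 biological replicates. The groups cross wild type (Col-0) and the cytokinin receptor double mutant ahk3 ahk4, the basal and the medial segment of the hypocotyl, and 0, 8 and 16 h after wounding. Wounding was the excision of the seedling just above the junction of root and shoot, and all seedlings had germinated in continuous light and then grown in low light. No group held uncut hypocotyls at 8 or 16 h, so time after the cut and hour of harvest move together. The labels give no alleles, do not say how many seedlings went into a library, and do not describe the light after the cut. AHK3 tags ranged from 43.85 to 164.3 CPM, counts scaled to the size of the library, in the wild-type libraries and from 1.329 to 8.706 CPM in the mutant ones. AHK4 tags ranged from 2.523 to 14.14 CPM in wild type and from 0.09857 to 2.2 CPM in the mutant, so neither gene's ranges overlapped. Reads assigned to genes ranged from 6136167 to 13557332 per library with a median of 9744646. In bulk segments such as these, fewer plastid-rich cells and fewer plastid tags per cell cannot be told apart.

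A few loci held most of the plastid tags. ATCG00470 alone took 32.8% of the reads on the 89 loci, between 14.9% and 43.7% in single libraries, and the 10 loci with the most reads took 78.4%. After ATCG00470 these were ATCG00440 with 9.21%, ATCG00630 with 8.73%, ATCG00030, ATCG00090, ATCG00220, ATCG00330, ATCG00040, ATCG01130 and ATCG00740. These are shares of tags, and a 3' tag count is not divided by length. Between 63 and 87 of the 89 loci had a read in any 1 library, and 54 had a read in each of the 36. The filter on low counts passed 84 of the 89, and the 5 that it left out were ATCG00930, ATCG01180, ATCG00200, ATCG00700 with 68 reads and ATCG00320 with 96.

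The summed share of plastid tags among reads assigned to genes was lowest in ahk3 ahk4 basal segments at 16 h and highest in ahk3 ahk4 medial segments at 16 h. It was 0.36%, 0.215% and 0.566% in the 3 libraries of the first group and 2.65%, 1.84% and 2.33% in the 3 libraries of the second. Over all 36 libraries it ranged from 0.215% to 2.65% with a median of 1.16%. No test was made on this sum.

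In basal segments the share stood at 1.20% ± 0.147 (SD, n = 3) in wild type and 1.64% ± 0.153 in the mutant at 0 h, without overlap between their libraries. At 8 h it was 0.602% ± 0.256 in wild type and 0.563% ± 0.196 in the mutant, below each of the 0 h libraries of the same genotype. At 16 h wild type stood at 0.878% ± 0.0236 and the mutant at 0.38% ± 0.177, and the 2 sets of libraries did not overlap. In medial segments the share was 1.46% ± 0.324 in wild type and 1.54% ± 0.0603 in the mutant at 0 h, 1.03% ± 0.389 and 0.9725% ± 0.423 at 8 h, and 1.31% ± 0.356 and 2.27% ± 0.408 at 16 h. The wild-type medial libraries overlapped across the 3 times, whereas each mutant medial library at 16 h was above each mutant medial library at 0 h.

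**Figure D1:**
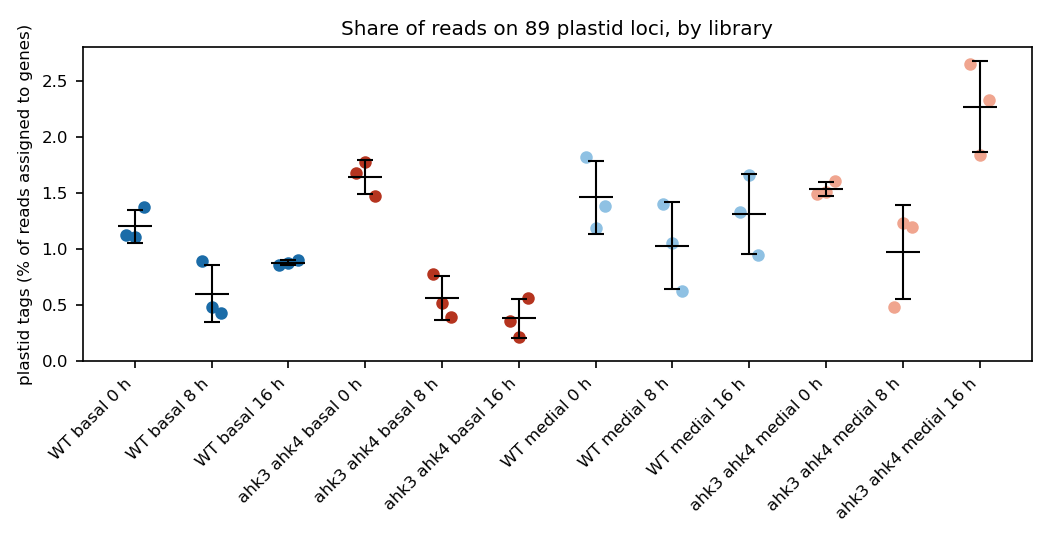
Share of reads assigned to genes that fell on plastid loci (%, vertical axis) in each of the 36 libraries, by group on the horizontal axis. Points are libraries, horizontal bars mark group means and whiskers 1 SD (n = 3). The ahk3 ahk4 basal libraries at 16 h lie between 0.215% and 0.566%, and the ahk3 ahk4 medial libraries at 16 h between 1.84% and 2.65%.

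Reads that aligned at more than 1 place are kept apart by the counting program and assigned to no locus. Their share moved with the plastid share of assigned reads. They made up 2.98% to 60.3% of all reads in a library. Their group mean was highest in ahk3 ahk4 basal segments at 0 h, at 52.9% ± 8.13, and lowest in the same segments at 16 h, at 7.86% ± 6.37. In the latter group single libraries held 5.54%, 2.98% and 15.1%, in the same order as their plastid shares of 0.36%, 0.215% and 0.566%. Within the 12 groups, the library with the highest share of multiply aligned reads was also the one with the highest plastid share in 8 groups, and the lowest coincided in 9. Assigned reads leave out the multiply aligned ones, so the 2 shares are not independent. With all reads as the denominator, the plastid shares in ahk3 ahk4 basal segments at 16 h were 0.334%, 0.205% and 0.4675%, again in that order. At 0 h the library with 60.3% multiply aligned reads had the lowest, 0.6705%. In ahk3 ahk4 medial segments at 0 h the library with 39.8% did too, at 0.93%. Coincidences over the 12 groups were not counted that way.

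Reads outside annotated genes made up 1.46% to 3.21% of all reads, and in ahk3 ahk4 medial segments at 16 h, the group with the highest plastid share, they reached their highest group mean of 2.93% ± 0.245. As a share of assigned reads and reads outside genes together, their highest library within a group coincided with the highest plastid share in 10 of 12 groups and the lowest in 8. Reads overlapping more than 1 gene stayed between 0.0541% and 0.166%, and their highest library coincided with that of the plastid share in 2 groups. The rows for low alignment quality and for unaligned reads were 0 in each library. With all reads in the file as the denominator, the plastid share was 0.73% ± 0.0593 in ahk3 ahk4 basal segments at 0 h, against 0.724% ± 0.053 in wild type, and 0.3355% ± 0.131 against 0.64% ± 0.0383 at 16 h.

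**Figure D2:**
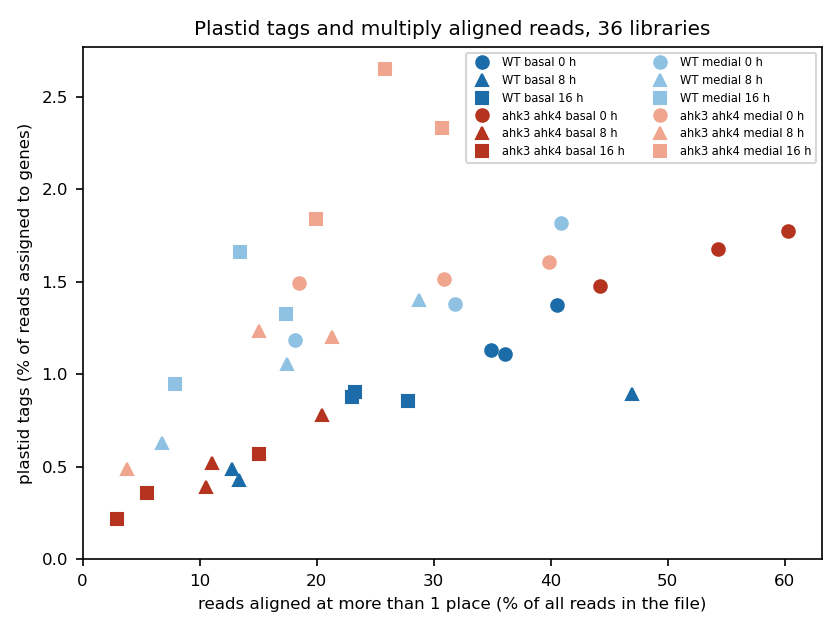
Plastid tags (% of reads assigned to genes, vertical axis) against reads aligned at more than 1 place (% of all reads, horizontal axis) in the 36 libraries, with colour for genotype and segment and symbol for time. The ahk3 ahk4 basal libraries at 16 h sit at the lower left and the ahk3 ahk4 medial libraries at 16 h at the top.

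A fit chosen after this pattern was seen added the log2 ratio of multiply aligned to assigned reads to the model of 12 groups. In it 58 of the 84 tested plastid loci rose with the ratio and 0 fell, while 6.42% of all genes tested rose and 5.40% fell. The median slope was 0.72 over the 84 loci and -0.01 over all genes, and 80 of the 84 slopes were above 0. ATCG00470 had a slope of 0.5 (SE 0.08, adjusted p = 1.44e-05) and ATCG00670 of 1.22 (SE 0.19, adjusted p = 6.83e-05). Slopes of ATCG00630 (-0.07, SE 0.35), ATCG00740 (-0.02, SE 0.08) and ATCG00430 (-0.05, SE 0.18) did not pass the test. Because the plastid share itself and the multiply aligned share come from the same libraries, the part of either in the other was not tested.

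Single loci were then compared between groups, and the largest block of calls lay in the basal segments of the mutant. A locus is called here at an adjusted p under 0.05 over the 19819 genes tested. At 8 h after the cut, 43 of the 84 tested plastid loci were lower than at 0 h and 1 was higher in ahk3 ahk4 basal segments, where 19.7% of all genes tested were lower and 23.3% higher. At 16 h 54 were lower and 1 higher, beside 22.2% and 24.7% of all genes. The median log2 fold change of the 84 loci was -1.93 at 8 h and -2.58 at 16 h, and that of all genes 0.02 and 0.04.

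ATCG00470 is an example of the block. In ahk3 ahk4 basal segments it held 4563, 5707 and 3817 CPM at 0 h, 2720, 2680 and 1394 at 8 h and 849, 363 and 1319 at 16 h. The 3 times did not overlap, and the log2 fold change against 0 h was -1.05, SE 0.42, adjusted p = 0.0406 at 8 h and -2.48, SE 0.43, adjusted p = 2.28e-05 at 16 h. ATCG00440 held 1414, 1530 and 1554 CPM at 0 h, 526, 359 and 526 at 8 h and 202, 152 and 385 at 16 h. Its log2 fold change was -2.60, SE 0.29, adjusted p = 2.98e-09 at 16 h, again with no overlap between 16 h and 0 h.

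Other named loci were lower as well, some by more and some by less. ATCG00130 went from 248, 232 and 155 CPM at 0 h to 13.8, 7.64 and 7.39 at 16 h, a log2 fold change of -4.46, SE 0.69, adjusted p = 6.58e-06. ATCG00680 went from 95.5, 150 and 79.6 CPM to 2.32, 0.301 and 9.96, a log2 fold change of -4.69, SE 0.85, adjusted p = 6.24e-05. ATCG01010 went from 12.2, 11.1 and 10.9 CPM to 0 in 2 libraries and 0.788 CPM in the third. ATCG00510 (log2 fold change -3.93, SE 0.65, adjusted p = 1.58e-05) and ATCG00560 (log2 fold change -4.02, SE 0.71, adjusted p = 2.7e-05) were lower at 16 h too. ATCG00070, ATCG00120, ATCG00360, ATCG00540, ATCG00380, ATCG01040, ATCG00190, ATCG00180, ATCG00330 and ATCG00090 were each lower at both times, with log2 fold changes at 16 h from -4.42 for ATCG00070 to -1.48 for ATCG00330. ATCG00740 was the 1 locus called higher at 16 h, with 172, 135 and 192 CPM at 0 h and 307, 357 and 248 at 16 h (log2 fold change 0.87, SE 0.31, adjusted p = 0.0196).

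These counts moved with the libraries and with the shares given above. Multiply aligned reads in ahk3 ahk4 basal libraries made up 44.2% to 60.3% at 0 h, 10.5% to 20.4% at 8 h and 2.98% to 15.1% at 16 h. The 0 h libraries thus overlapped with neither later time. For that reason the fit with the ratio of these reads cannot separate a change with time from a change with their share. The share of all genes called in that fit is not given here. The 55 calls at 16 h became 35 without replicate 2 of that group and 63 without replicate 3, and the 44 at 8 h became 25 without 8 h replicate 3. With the ratio of multiply aligned reads as a covariate they became 5 at 16 h and 9 at 8 h, with the share of reads outside genes 6 and 9, and without the 5 libraries under 10% multiply aligned reads, which left 1 mutant basal library at 16 h, 23 and 56; in the covariate fits the fold changes of ATCG00470 at 8 h, of ATCG00330, ATCG00190 and ATCG00180 at both times and of some other loci turned above 0.

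In wild-type basal segments fewer loci were called over the same interval, an order that turned in the covariate fits. At 8 h 10 of the 84 were lower and 0 higher, beside 19.1% and 20.7% of all genes, and at 16 h 13 were lower and 1 higher, beside 17.8% and 20%. These shares of the plastid loci, 11.9% and 15.5% lower, are below those of all genes. Called or not, 73 of the 84 had a log2 fold change below 0 at 8 h (median -1.01, all genes -0.03). At 16 h 59 did (median -0.55, all genes 0). All 10 called lower at 8 h were among the 43 called lower in the mutant, and 11 of the 13 at 16 h were among its 54. Those 43 and 54 are 51.2% and 64.3% of the 84, and the same overlap over all genes is not given here. Whether the 2 genotypes differ is tested further on.

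ATCG00440 was called at both times. It held 1230, 1187 and 1100 CPM at 0 h, 446, 472 and 517 at 8 h and 565, 660 and 604 at 16 h, with log2 fold changes of -1.29, SE 0.28, adjusted p = 0.000275 and -0.94, SE 0.28, adjusted p = 0.00657. Replicates were close within each time and the 0 h libraries stood above the rest. ATCG00130 held 93.9, 119 and 187 CPM at 0 h and 24.6, 24.3 and 19.1 at 16 h, a log2 fold change of -2.56, SE 0.63, adjusted p = 0.00195. ATCG00470 held 2838, 2498 and 3303 CPM at 0 h, 2187, 1887 and 1348 at 8 h and 2804, 2640 and 3302 at 16 h, and was called at neither time. The count at 8 h was 3 without 8 h replicate 2 and 29 without 8 h replicate 1, the library with 46.9% multiply aligned reads beside 12.7% and 13.3% in the other 8 h libraries. The count at 16 h was 5 without 16 h replicate 3. With the compared groups fitted alone, 30 loci were called at 8 h and 40 at 16 h, beside 53 and 47 in the mutant. With the ratio of multiply aligned reads as a covariate wild type had 14 and 15 calls and the mutant 9 and 5, and with the share of reads outside genes 13 and 18 against 9 and 6.

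**Figure D3:**
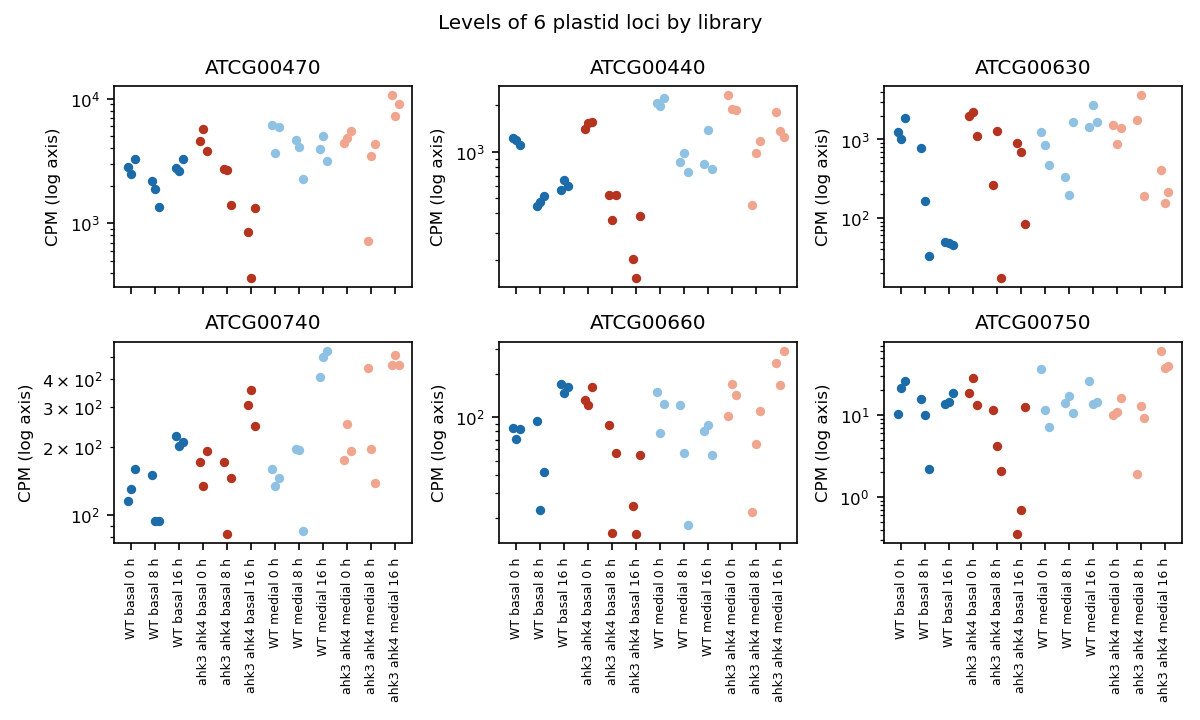
Levels of 6 plastid loci in CPM (log axis) in each of the 36 libraries, by group. Points are libraries. ATCG00470 and ATCG00440 are lowest in ahk3 ahk4 basal segments at 16 h, ATCG00630 lies between 44.7 and 49.6 CPM in the 3 wild-type basal libraries at 16 h, and ATCG00740 has its highest group means in the medial segments at 16 h of both genotypes.

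Few loci were called in medial segments at 8 h. In wild type 8 of the 84 loci were called lower and 1 higher, beside 19.4% and 20.6% of all genes. In ahk3 ahk4 11 were called lower and 1 higher, beside 17.3% and 20.7%. Called or not, 70 of the 84 had a log2 fold change below 0 in wild type (median -0.79, all genes 0). In ahk3 ahk4 60 did (median -0.72, all genes 0.02). ATCG00440 was lower in both, from 2075, 1987 and 2246 CPM to 864, 985 and 739 in wild type (log2 fold change -1.28, SE 0.28, adjusted p = 0.000298) and from 2328, 1907 and 1853 to 449, 977 and 1178 in the mutant (log2 fold change -1.23, SE 0.28, adjusted p = 0.000594). ATCG00220, among the 10 loci with the most reads, held 600, 942 and 806 CPM in wild type at 0 h and 433, 309 and 40.3 at 8 h (log2 fold change -1.59, SE 0.57, adjusted p = 0.0269). The wild-type count was 2 without 8 h replicate 2 and 16 without 8 h replicate 1, and the mutant count 4 without 8 h replicate 1 and 17 without 8 h replicate 3.

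In medial segments at 16 h the calls were mostly lower in wild type and mostly higher in ahk3 ahk4. Wild type had 20 loci lower than at 0 h and 4 higher, beside 18.0% and 21.3% of all genes. In ahk3 ahk4 2 were lower and 11 higher, beside 16.1% and 19.2%, and 0 loci were lower in both. The share lower in wild type, 23.8%, is near that of all genes, and the share higher in the mutant, 13.1%, is below it. The count in wild type was 14 without 16 h replicate 3 and 36 with the compared groups alone, and that in the mutant 10 to 13 over the 6 libraries left out, 37 with the compared groups alone and 21 without the 5 libraries under 10% multiply aligned reads. The balance of directions turned in wild type in both covariate fits and in the mutant in one of them. Wild type had 16 higher and 10 lower with the ratio of multiply aligned reads and 17 higher and 10 lower with the share of reads outside genes, and the mutant had 19 higher and 5 lower with the former and 9 higher and 20 lower with the latter.

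Among the 20 lower in wild type were loci close to the limit of detection. ATCG00250 held 3.55, 2.38 and 9.56 CPM at 0 h and 1 read in the 3 libraries together at 16 h (adjusted p = 0.000424). ATCG00070 held 10.1, 7.34 and 13.1 CPM at 0 h and 0.977, 0 and 0.315 at 16 h, with an adjusted p of 0.000524. More abundant were ATCG00090, with 953, 628 and 837 CPM at 0 h and 177, 334 and 159 at 16 h (log2 fold change -1.85, SE 0.58, adjusted p = 0.0128), and ATCG00510, with 309, 105 and 145 and 34.9, 55.2 and 31.9 CPM (log2 fold change -2.20, SE 0.60, adjusted p = 0.00439). Neither overlapped between the times. ATCG00120, ATCG00440, ATCG00560, ATCG00680 and ATCG01010 were also lower.

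Among the 11 higher in ahk3 ahk4, ATCG00330 went from 261, 182 and 321 CPM at 0 h to 1238, 782 and 850 at 16 h, a log2 fold change of 1.91, SE 0.47, adjusted p = 0.00189. ATCG00180 went from 36.7, 37.8 and 59.9 to 297, 153 and 223 CPM (log2 fold change 2.33, SE 0.48, adjusted p = 0.000286), and ATCG01130 from 170, 208 and 223 to 706, 427 and 594 CPM (log2 fold change 1.52, SE 0.40, adjusted p = 0.0033). In each the 16 h libraries were all above the 0 h libraries. ATCG00190 and ATCG01040 were higher too, with log2 fold changes of 2.34 and 1.13.

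ATCG00740, ATCG00790 and ATCG00810 were higher at 16 h in the medial segments of both genotypes. ATCG00740 held 160, 135 and 146 CPM at 0 h and 407, 503 and 533 at 16 h in wild type (log2 fold change 1.71, SE 0.31, adjusted p = 3.61e-05). In the mutant it held 175, 254 and 193 and 462, 510 and 460 CPM (log2 fold change 1.20, SE 0.31, adjusted p = 0.00223). ATCG00790 held 53.6, 51.1 and 45.6 and 150, 214 and 103 CPM in wild type (log2 fold change 1.64, SE 0.42, adjusted p = 0.00227), while mutant libraries held 32.4, 46.3 and 30.1 and then 220, 198 and 177 CPM (log2 fold change 2.45, SE 0.43, adjusted p = 3.34e-05). ATCG00790 was also called higher in wild-type basal segments at 16 h, at 116, 146 and 79.8 CPM against 38.2, 68.8 and 46.1 at 0 h. ATCG00810 was a scarce locus, with 13.3, 14.7 and 6.7 CPM in wild type at 16 h against 7.21, 4.43 and 4.26 at 0 h, and in the mutant 17.4, 9.32 and 16.3 against 3.68, 3.44 and 4.88.

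**Figure D4:**
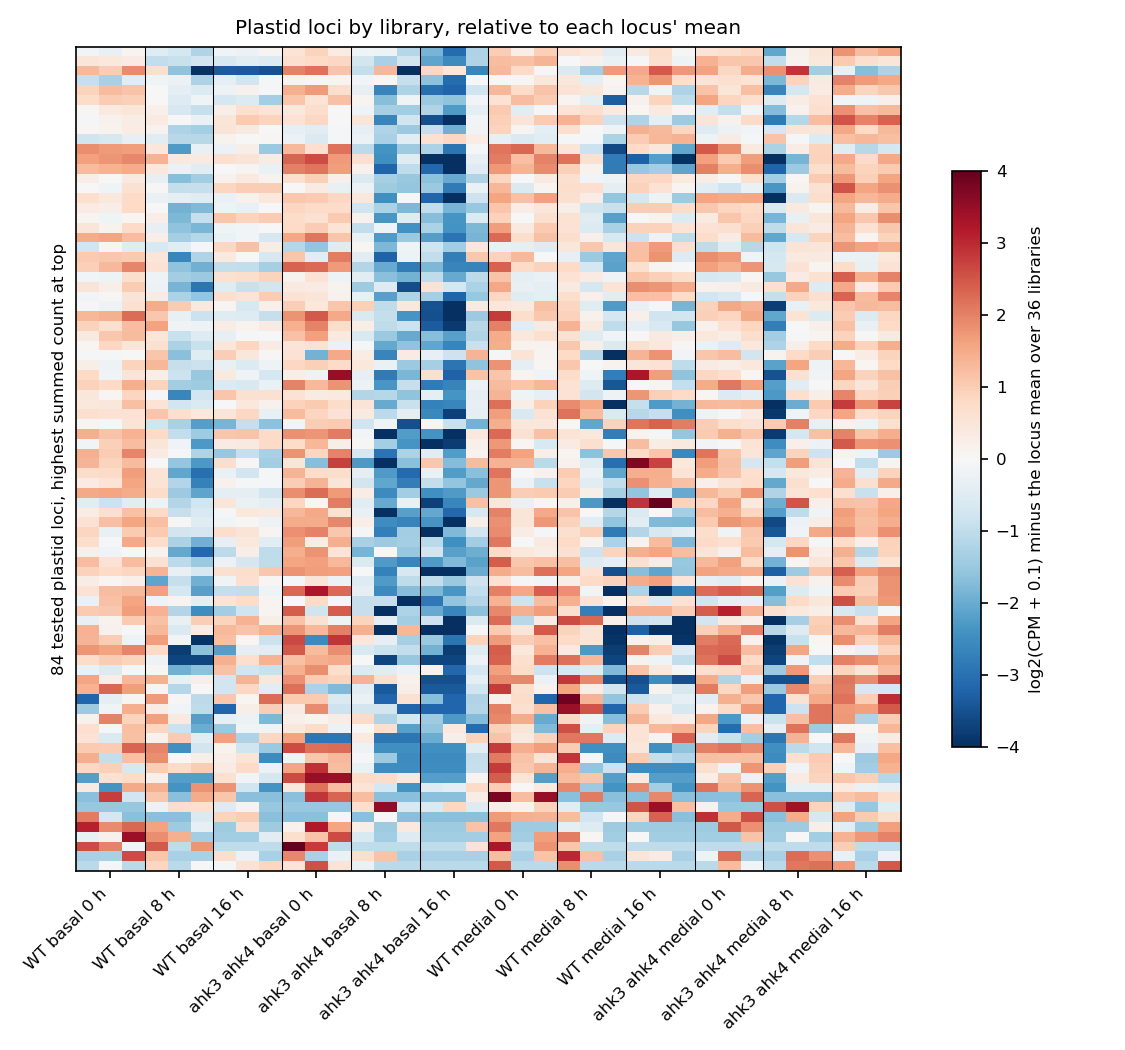
Level of each of the 84 tested plastid loci (rows, the locus with the most reads at the top) in each of the 36 libraries (columns, by group) as log2(CPM + 0.1) minus the mean of that locus over the libraries. Blue marks levels under the mean and red levels over it. Most rows are blue in ahk3 ahk4 basal segments at 16 h and red in ahk3 ahk4 basal segments at 0 h and ahk3 ahk4 medial segments at 16 h.

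Over the 89 loci, ahk3 ahk4 basal segments at 16 h had the lowest group mean for 50 and ahk3 ahk4 basal segments at 8 h for 13. The highest group mean lay in ahk3 ahk4 basal segments at 0 h for 25 loci and in ahk3 ahk4 medial segments at 16 h for 22. ATCG00630 departed from this order. It held 49.6, 48.6 and 44.7 CPM in wild-type basal segments at 16 h, against 1237, 1005 and 1873 at 0 h (log2 fold change -4.85, SE 1.28, adjusted p = 0.00379) and 1449, 2765 and 1669 in medial segments at 16 h. In ahk3 ahk4 it held 894, 692 and 83.3 CPM in basal and 413, 155 and 212 in medial segments at 16 h. Its replicates spread widely, as with 260, 1277 and 17.1 CPM in ahk3 ahk4 basal segments at 8 h.

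Few loci differed between the segments at 0 h. There 1 locus was lower and 0 higher in wild-type basal segments, beside 6.70% and 5.79% of all genes, and in the mutant 0 were lower and 1 higher, beside 7.23% and 5.15%. The locus lower in wild type was ATCG00440, with 1230, 1187 and 1100 CPM in basal and 2075, 1987 and 2246 in medial segments (log2 fold change -0.84, SE 0.28, adjusted p = 0.0374), and the call was lost without any 1 of the 6 libraries. The locus higher in the mutant was ATCG01210, which is named because it was the 1 call and not by its place in the order of counts. It held 5.6, 1.29 and 0 CPM in basal segments and 0 in each medial library (adjusted p = 0.036), and the call was lost in 5 of the 6 fits without 1 library and with DESeq2. In the fits with the ratio of multiply aligned reads and with reads outside genes as the covariate, 4 and 3 loci were lower and 0 higher in wild-type basal segments, and 4 and 9 lower and 0 higher in mutant ones, and with the compared groups alone 5 were lower in wild type and 6 higher and 2 lower in the mutant.

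At 8 h 3 loci were lower in wild-type basal segments and 0 higher, beside 7.30% and 6.83% of all genes. These 3 were ATCG00810, ATCG01040 and ATCG00440. In ahk3 ahk4 8 were lower and 0 higher, beside 7.35% and 5.88%. Without wild-type basal replicate 1 the 3 became 10, and the 8 became 1 without mutant basal replicate 3 and 14 without mutant medial replicate 1. In the covariate fits the 3 became 17 and 12, and the 8 became 22 with the ratio of multiply aligned reads, 22 without the 5 libraries and 2 with the compared groups alone.

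At 16 h the segments of the mutant stood far apart. In ahk3 ahk4 50 loci were lower in basal than in medial segments and 0 higher, beside 13.0% and 13.5% of all genes, with a median log2 fold change of -2.69 against 0.02 for all genes. ATCG00470 held 849, 363 and 1319 CPM in basal and 10670, 7304 and 9054 in medial segments (log2 fold change -3.42, SE 0.45, adjusted p = 1.38e-06). ATCG00040 held 20.9, 12 and 226 and 1400, 961 and 1231 CPM (log2 fold change -3.80, SE 0.94, adjusted p = 0.00374), and ATCG00030 218, 80.8 and 696 and 2720, 2227 and 1997 CPM (log2 fold change -2.80, SE 0.55, adjusted p = 0.00041). No library of one segment reached the other for these 3 loci, but basal replicate 3 stood closest. Multiply aligned reads were 5.54%, 2.98% and 15.1% in the basal libraries and 25.8%, 19.9% and 30.7% in the medial ones. The 50 calls became 31 without basal replicate 2, 26 with the ratio of multiply aligned reads as a covariate, 6 with the share of reads outside genes, and 16 without the 5 libraries under 10% multiply aligned reads.

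In wild type at 16 h 9 loci were lower in basal than in medial segments and 5 higher, beside 10.9% and 9.88% of all genes, a share near that of all genes. The lower loci included ATCG00630, ATCG00030, ATCG00740 and ATCG00380, and the higher ones ATCG01010 and ATCG00250. ATCG01010 held 5.41, 5.67 and 7.3 CPM in basal and 0.977, 0.716 and 1.1 in medial segments (log2 fold change 2.69, SE 0.89, adjusted p = 0.0308). The 14 calls became 7 without basal replicate 1, and 30 and 26 in the 2 covariate fits.

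Between genotypes, 0 plastid loci were called in basal segments at 0 h, beside 2.24% of all genes lower and 0.843% higher in the mutant, and 0 at 8 h, beside 0.131% and 0.161%. Likewise 0 were called in medial segments at 0 h, beside 3.16% and 2.61%, and 0 at 8 h, beside 0.363% and 1.90%. In these edgeR fits 3, 5, 1 and 7 loci, in the same order, had an unadjusted p under 0.05. The share of all genes under that unadjusted threshold is not given here, so these counts cannot be read against it. DESeq2 also called 0 in the first 3 and 1 in medial segments at 8 h. In basal segments at 0 h 8 loci were called, all higher in the mutant, with the compared groups fitted alone, 1 in each covariate fit and 1 without the 5 libraries under 10% multiply aligned reads. In medial segments at 8 h 5 were called without mutant 8 h replicate 3 and 1 without wild-type 8 h replicate 1.

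At 16 h the genotypes differed in both segments, in opposite directions. In basal segments 13 loci were lower in ahk3 ahk4 than in wild type and 0 higher, beside 2.65% and 2.30% of all genes. ATCG00470 held 2804, 2640 and 3302 CPM in wild type and 849, 363 and 1319 in the mutant (log2 fold change -1.79, SE 0.42, adjusted p = 0.0172). ATCG00190 held 55, 49.6 and 70.6 and 13.8, 3.72 and 12 CPM (log2 fold change -2.56, SE 0.53, adjusted p = 0.00844), and ATCG00440 565, 660 and 604 and 202, 152 and 385 CPM (log2 fold change -1.31, SE 0.28, adjusted p = 0.00768). In each the 2 genotypes did not overlap. Also lower were ATCG01010, ATCG00180, ATCG01040, ATCG00540, ATCG00330, ATCG00360 and ATCG00380.

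The basal difference rested on single libraries. It was 0 loci without mutant replicate 2 and 34 without mutant replicate 3, and 0 in both covariate fits and without the libraries under 10% multiply aligned reads. Multiply aligned reads were 27.8%, 23.0% and 23.25% in the wild-type libraries, above the 5.54%, 2.98% and 15.1% of the mutant ones.

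In medial segments 6 loci were higher in ahk3 ahk4 at 16 h and 0 lower, beside 1.51% and 1.81% of all genes. ATCG00040 held 106, 188 and 91 CPM in wild type and 1400, 961 and 1231 in the mutant (log2 fold change 3.22, SE 0.91, adjusted p = 0.0497). ATCG01010 held 0.977, 0.716 and 1.1 and 18.5, 11 and 13.4 CPM (log2 fold change 3.91, SE 0.91, adjusted p = 0.0148), and ATCG00070 0.977, 0 and 0.315 and 5.1, 4.83 and 8.75 CPM (adjusted p = 0.0286). ATCG00250, at 1 read in wild type, held 4.22, 4.38 and 7.17 CPM in the mutant (adjusted p = 0.00951). ATCG00140 and ATCG00490, named because they complete the 6, were the others. The count was between 0 and 3 without any 1 of the 6 libraries, 34 with the compared groups alone, 16 with DESeq2 and 0 in the fit with reads outside genes. Wild-type libraries held 17.35%, 13.5% and 7.935% multiply aligned reads beside 25.8%, 19.9% and 30.7% in the mutant.

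**Figure D5:**
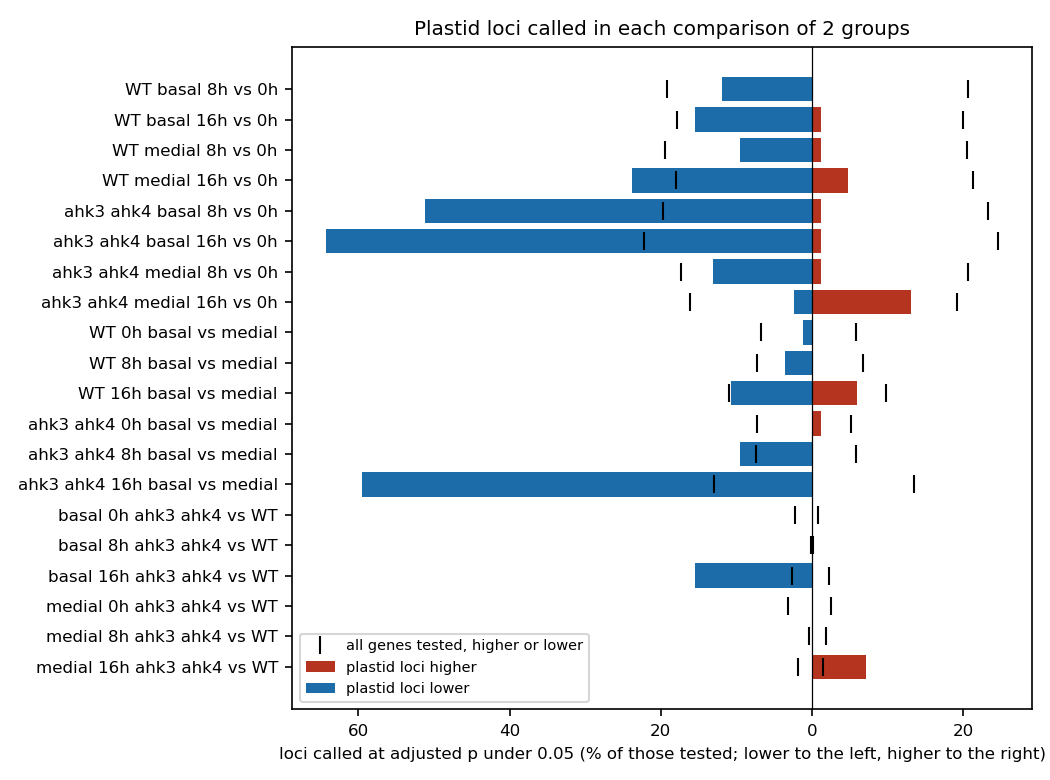
Plastid loci called in each of the 20 comparisons of 2 groups, as a percentage of the 84 tested (horizontal axis, lower to the left and higher to the right), with vertical ticks for the percentage of all genes tested in the same direction. The bars for ahk3 ahk4 basal segments at 8 and 16 h against 0 h and for ahk3 ahk4 basal against medial segments at 16 h reach far past the ticks of all genes, at 51.2%, 64.3% and 59.5% lower.

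Whether the changes differed between genotypes or segments was tested by interaction terms in the same model. The change from 0 to 16 h in basal segments differed between genotypes for 6 loci, each lower in the mutant, beside 1.12% of all genes. These were ATCG00440 (log2 difference -1.66, adjusted p = 0.016), ATCG00470 (-2.49, adjusted p = 0.0192), ATCG01040, ATCG01010, ATCG00190 and ATCG00660. In medial segments it differed for 4 loci, each higher in the mutant, beside 2.02% of all genes. These 4, ATCG01010, ATCG00250, ATCG00140 and ATCG01100, the last of which is named here and further on because it completes the calls, are scarce, and in wild type at 16 h they held 33, 1, 1 and 0 reads over the 3 libraries. At 8 h 0 loci differed between genotypes in basal segments, beside 0.833% of all genes, and 0 in medial segments, beside 3.07%. DESeq2 called 0 and 1. In edgeR 5 and 1 loci had an unadjusted p under 0.05, for which the share of all genes is not given here. Without 1 library the 6 ranged from 0 to 26 and the 4 from 0 to 5, and with the ratio of multiply aligned reads as a covariate they became 0 and 2.

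The difference between segments changed with time in the mutant. From 0 to 16 h 37 loci fell further, or rose less, in basal than in medial segments of ahk3 ahk4, beside 8.16% of all genes. ATCG00470 had a log2 difference of -3.35, SE 0.60, adjusted p = 0.000255 and ATCG00190 of -4.57, SE 0.74, adjusted p = 0.000104. In wild type 4 loci differed in this way at 16 h, beside 10.1% of all genes. They were ATCG00630 and ATCG00430, lower in basal segments, and ATCG00250 and ATCG01100, higher there. At 8 h ATCG00810 alone was called in wild type, beside 2.94% of all genes. In ahk3 ahk4 0 loci were called, beside 4.67%, and DESeq2 called 5. There 19 loci had an unadjusted p under 0.05 in edgeR, for which the share of all genes is not given here. The 37 became 22 without mutant basal 16 h replicate 2, 6 with the ratio of multiply aligned reads as a covariate and 15 without the 5 libraries under 10% multiply aligned reads.

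For 5 of the 89 loci the reference annotation gives a product, through notes on nuclear genes that resemble them, and they are described for that reason. ATCG00660 and ATCG00750 encode ribosomal proteins L20 and S11 of the plastid ribosome. In mutant basal segments ATCG00660 held 131, 122 and 164 CPM at 0 h and 24.2, 15.5 and 54.6 at 16 h (log2 fold change -2.14, SE 0.62, adjusted p = 0.00618), and it held 239, 166 and 290 in medial segments at 16 h. In wild-type basal segments at 16 h it held 170, 147 and 161 CPM, above all the mutant libraries (log2 fold change -2.34, SE 0.63, adjusted p = 0.0329 for mutant against wild type). In ahk3 ahk4 basal segments ATCG00750 held 18.4, 28 and 13.1 CPM at 0 h and 0.357, 0.703 and 12.6 at 16 h, where replicate 3 lay close to the 0 h libraries (log2 fold change -2.12, SE 0.86, adjusted p = 0.0446).

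ATCG00670 encodes the plastid-made ClpP, a proteolytic subunit of the Clp protease of plastids. In mutant basal segments it held 37.4, 35.7 and 44.4 CPM at 0 h, 9.66, 0 and 2.15 at 8 h and 1.88, 0.101 and 13.8 at 16 h. The log2 fold changes were -3.26, SE 1.10, adjusted p = 0.0189 and -2.90, SE 1.09, adjusted p = 0.031. ATCG00530, noted as a CemA-like proton extrusion protein, held 17.5, 20.1 and 10.8 CPM at 0 h and 1.61, 0.703 and 4.43 at 16 h in the same segments (log2 fold change -2.83, SE 0.68, adjusted p = 0.00108). It was also lower in wild-type medial segments at 16 h, at 4.64, 6.95 and 2.68 CPM against 27.8, 9.72 and 20 at 0 h (log2 fold change -2.02, SE 0.65, adjusted p = 0.0133). In the covariate fits the fold changes of ATCG00530, ATCG00660, ATCG00670 and ATCG00750 in ahk3 ahk4 basal segments at 16 h turned above 0.

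For ATCG00430 the name photosystem II reaction center protein G comes only from a note on the nuclear gene AT5G11770 and was not checked here. In ahk3 ahk4 basal segments ATCG00430 held 11.1, 24 and 24.9 CPM at 0 h and 12.3, 6.43 and 3.15 at 16 h. The libraries of these times overlapped. In wild type at 16 h it held 3.2, 6.31 and 3.74 CPM in basal and 52.8, 62.3 and 49.8 in medial segments (log2 fold change -3.64, SE 0.69, adjusted p = 0.000361). In ahk3 ahk4 at 16 h it held 12.3, 6.43 and 3.15 CPM in basal and 13.4, 10.3 and 18.6 in medial segments, and the 2 were not called different.

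Mitochondrial loci, the other organelle genome in the files, served as the nearest comparison. Of 152 such loci 60 held at least 30 reads and 48 passed the filter. In ahk3 ahk4 basal segments 4 of the 48 were lower and 8 higher at 8 h, beside 19.7% and 23.3% of all genes, and 10 lower and 4 higher at 16 h, beside 22.2% and 24.7%, so that the share lower at 16 h is near that of all genes. There the plastid counts were 43 lower and 1 higher, and 54 lower and 1 higher, of 84. In ahk3 ahk4 at 16 h 6 mitochondrial loci were lower in basal than in medial segments and 0 higher, beside 13.0% and 13.5% of all genes. The mitochondrial share of assigned reads was 0.162% ± 0.182 (SD, n = 3) in ahk3 ahk4 basal and 0.383% ± 0.0513 in ahk3 ahk4 medial segments at 16 h, and its highest and lowest libraries within a group coincided with those of the plastid share in 8 and 10 of 12 groups. In wild-type basal segments at 8 h 15 mitochondrial loci were higher and 0 lower, beside 20.7% and 19.1% of all genes, where 0 plastid loci were higher and 10 lower. In the fit with multiply aligned reads 9 of 48 rose with the ratio.

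Nuclear genes that serve plastid gene expression were counted in lists. Of 20 genes of plastid transcription, all tested, 13 were higher and 1 lower in wild-type basal segments at 16 h, beside 20% and 17.8% of all genes, and 15 higher and 0 lower in wild-type medial segments, beside 21.3% and 18.0%. In ahk3 ahk4 7 were higher and 4 lower in basal segments at 16 h, beside 24.7% and 22.2%, and 15 higher and 0 lower in medial segments, beside 19.2% and 16.1%. FLN1, a fructokinase-like protein bound to the plastid-encoded polymerase, had log2 fold changes at 16 h of 3.35 and 3.04 in basal segments of wild type and mutant. The sigma factor gene SIGF had 1.76 and 1.59, and PTAC7, another polymerase-associated protein, 1.52 and 2.16. The 4 called lower in ahk3 ahk4 basal segments at 16 h are named to show the other direction. In wild type and mutant, SIGC had -0.44 and -2.65, AT5G15700 1.35 and -1.67, PTAC3 0.39 and -1.45, and SIGA -0.27 and -1.19. None of them was called in wild-type basal segments at 16 h. In ahk3 ahk4 at 16 h 18 of the 20 were lower in basal than in medial segments and 0 higher, beside 13.0% and 13.5% of all genes. In wild type 14 were lower and 1 higher at 8 h, beside 7.30% and 6.83%. At 16 h 6 were lower and 1 higher in wild type, beside 10.9% and 9.88%. In ahk3 ahk4 at 8 h 8 were lower and 1 higher, beside 7.35% and 5.88%.

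Of 6 genes of plastid RNA processing and decay, 4 were higher in wild-type basal and 4 in wild-type medial segments at 16 h, and 3 and 5 in ahk3 ahk4, with 0 lower in any of these. Of all genes 20%, 21.3%, 24.7% and 19.2% were higher in these comparisons, in the same order. CRB and CSP41A, which encode RNA-binding endoribonuclease-like proteins of chloroplasts, had log2 fold changes of 2.43 and 1.88 in ahk3 ahk4 basal segments at 16 h. The gene of plastid RNase J, emb2746, had 0.09 (adjusted p = 0.9) there and 1.83 (adjusted p = 0.00202) in medial segments.

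Nuclear subunits of complexes that plastid genes also encode were counted in a list of 33. At 16 h 14 were higher and 0 lower in wild-type basal segments, 27 and 0 in wild-type medial, 20 and 2 in ahk3 ahk4 basal, and 31 and 0 in ahk3 ahk4 medial segments. Of all genes 20% were higher and 17.8% lower in the first, 21.3% and 18.0% in the second, 24.7% and 22.2% in the third and 19.2% and 16.1% in the last. At 8 h in wild-type basal segments 22 were lower and 3 higher, beside 19.1% and 20.7% of all genes, and in ahk3 ahk4 basal segments 10 lower and 12 higher, beside 19.7% and 23.3%. RBCS1A, a gene of the Rubisco small subunit, had a log2 fold change of 3.99, SE 0.29, adjusted p = 9.69e-14 in ahk3 ahk4 basal segments at 16 h and 3.55, SE 0.28, adjusted p = 1.88e-12 in wild type. RBCS3B had 5.29 and 4.39, and RBCS1B 8.19 and 9.03. These small-subunit genes are near-identical copies, so tags could be split between them. Between genotypes in basal segments at 16 h 8 of the 33 were lower and 0 higher in the mutant, beside 2.65% and 2.30% of all genes. There 13 of the 84 plastid loci were lower. At 0 h 14 of the 33 were already lower and 0 higher in the mutant, beside 2.24% and 0.843% of all genes, and 0 plastid loci were called. The change from 0 to 16 h differed between genotypes for 2 of the 33, both higher in the mutant, beside 252 of the 19819 genes tested.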

How the data were processed

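Each of the 36 libraries came with 1 table of whole-number read counts per locus, which the authors deposited as raw counts. Counting used HTSeq, per the submitters' processing notes, which also name DESeq2; for the aligner, genome build, annotation and strand setting the sources used here give nothing. Rows that name no gene (reads outside genes, overlapping more than 1 gene, or aligned at more than 1 place) stayed out of library sizes and tests, and their shares, 1.46% to 3.21%, 0.0541% to 0.166% and 2.98% to 60.3% of all reads, are given as percentages of all reads in a file.

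Counts were tested with edgeR 4.0.16 in R 4.3.3, with the quasi-likelihood test, TMM factors, the default filter on low counts over the 12 groups and 1 model over all 36 libraries. It gave 20 comparisons of 2 groups and 8 interactions. All tests were two-sided, and p-values were adjusted by Benjamini-Hochberg over the 19819 genes tested in each. CPM are counts scaled to library size (assigned reads times the TMM factor), and SD is over the 3 replicates. The labels call the replicates biological without saying whether they came from separate sowings, so p-values measure the spread between these libraries. No replicate pair differed by less than sampling noise (lowest chi-square per degree of freedom 9.76 over 36 pairs). The test was tried on simulated data first.

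Loci named were the 10 with the most reads, up to 20 called in the most comparisons, 3 on each side of the minimum of 30, and up to 3 per nuclear list; those named for another reason are marked. The plastid loci and the nuclear lists were chosen with earlier results of these data known. A planned grouping of loci by role could not be made because the reference table names none of them. The 59 nuclear list genes were all found in the files and in the reference table (TAIR10.1 annotation). Alternatives were DESeq2 1.42.0, its size factors in edgeR, no low-count filter, the compared groups alone, a replicate block, organelle loci left out of the totals, a covariate for reads outside genes and each library left out. Added after the data were seen were the ratio of multiply aligned to assigned reads as a covariate and a fit without the 5 libraries under 10% multiply aligned reads.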

Additional observations from a re-analysis of the deposited data

Results flagged for a closer look

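Effects that differed between genotypes or segments by an interaction term are collected here. The change from 0 to 16 h differed between genotypes for 6 plastid loci in basal segments, beside 1.12% of all genes, and for 4 in medial segments, beside 2.02%. The difference between basal and medial segments changed with time for 37 loci in ahk3 ahk4 at 16 h, beside 8.16% of all genes. In wild type it changed for 1 locus at 8 h, beside 2.94%, and for 4 at 16 h, beside 10.1%. These wild-type shares of the plastid loci, 1.19% and 4.76%, are below those of all genes. The part of the multiply aligned reads in these differences was not tested. With their ratio as a covariate the 37 became 6 and the basal 6 became 0. That fit cannot separate time from their share in ahk3 ahk4 basal segments, where the share did not overlap between 0 and 16 h.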

How the results depend on the processing

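The change from the count given above to the count of called plastid loci under another setting is listed where it exceeded 1.5 times, with time comparisons against 0 h. With DESeq2, against 0 h 10 became 18 (wild-type basal 8 h), 9 became 16 (wild-type medial 8 h). Between segments 3 became 7 (wild-type 8 h), 1 became 0 (ahk3 ahk4 0 h), 8 became 13 (ahk3 ahk4 8 h). Between genotypes 13 became 27 (basal 16 h), 0 became 1 (medial 8 h), 6 became 16 (medial 16 h). For interactions 0 became 1 (genotype by time in medial 8 h), 4 became 12 (genotype by time in medial 16 h), 4 became 7 (segment by time in wild-type 16 h), 0 became 5 (segment by time in ahk3 ahk4 8 h). For mitochondrial loci under DESeq2, between segments 2 became 4 (wild-type 0 h). Between genotypes 0 became 1 (basal 0 h), 0 became 2 (basal 16 h), 0 became 4 (medial 16 h). With the compared groups fitted alone, against 0 h 10 became 30 (wild-type basal 8 h), 14 became 40 (wild-type basal 16 h), 13 became 37 (ahk3 ahk4 medial 16 h). Between segments 1 became 5 (wild-type 0 h), 14 became 31 (wild-type 16 h), 1 became 8 (ahk3 ahk4 0 h), 8 became 2 (ahk3 ahk4 8 h). Between genotypes 0 became 8 (basal 0 h), 6 became 34 (medial 16 h). Without the low-count filter, against 0 h 12 became 7 (ahk3 ahk4 medial 8 h). Between segments 14 became 9 (wild-type 16 h). With the ratio of multiply aligned reads as a covariate, against 0 h 9 became 15 (wild-type medial 8 h), 44 became 9 (ahk3 ahk4 basal 8 h), 55 became 5 (ahk3 ahk4 basal 16 h), 13 became 24 (ahk3 ahk4 medial 16 h). Between segments 1 became 4 (wild-type 0 h), 3 became 17 (wild-type 8 h), 14 became 30 (wild-type 16 h), 1 became 4 (ahk3 ahk4 0 h), 8 became 22 (ahk3 ahk4 8 h), 50 became 26 (ahk3 ahk4 16 h). Between genotypes 0 became 1 (basal 0 h), 13 became 0 (basal 16 h). For interactions 6 became 0 (genotype by time in basal 16 h), 4 became 2 (genotype by time in medial 16 h), 1 became 3 (segment by time in wild-type 8 h), 4 became 9 (segment by time in wild-type 16 h), 0 became 1 (segment by time in ahk3 ahk4 8 h), 37 became 6 (segment by time in ahk3 ahk4 16 h). With reads outside genes as the covariate, tried on the comparisons of 2 groups, against 0 h 9 became 14 (wild-type medial 8 h), 44 became 9 (ahk3 ahk4 basal 8 h), 55 became 6 (ahk3 ahk4 basal 16 h), 13 became 29 (ahk3 ahk4 medial 16 h). Between segments 1 became 3 (wild-type 0 h), 3 became 12 (wild-type 8 h), 14 became 26 (wild-type 16 h), 1 became 9 (ahk3 ahk4 0 h), 50 became 6 (ahk3 ahk4 16 h). Between genotypes 0 became 1 (basal 0 h), 13 became 0 (basal 16 h), 6 became 0 (medial 16 h). Without the 5 libraries under 10% multiply aligned reads, where 1 mutant basal library at 16 h is assumed to vary like the other groups, against 0 h 10 became 26 (wild-type basal 8 h), 55 became 23 (ahk3 ahk4 basal 16 h), 13 became 21 (ahk3 ahk4 medial 16 h). Between segments 1 became 3 (wild-type 0 h), 3 became 9 (wild-type 8 h), 14 became 23 (wild-type 16 h), 8 became 22 (ahk3 ahk4 8 h), 50 became 16 (ahk3 ahk4 16 h). Between genotypes 0 became 1 (basal 0 h), 13 became 0 (basal 16 h), 6 became 16 (medial 16 h). For interactions 6 became 1 (genotype by time in basal 16 h), 4 became 14 (genotype by time in medial 16 h), 4 became 9 (segment by time in wild-type 16 h), 0 became 8 (segment by time in ahk3 ahk4 8 h), 37 became 15 (segment by time in ahk3 ahk4 16 h). Fold changes (log2) that were called below 0 and turned above 0 in ahk3 ahk4 basal segments were, with the first covariate at 8 h, ATCG00470 0.40, ATCG00330 0.18, ATCG01010 0.06, ATCG00190 0.19, ATCG00180 0.11, and at 16 h ATCG00330 0.47, ATCG00190 0.15, ATCG00180 0.73, ATCG00530 0.08, ATCG00660 0.54, ATCG00670 1.03, ATCG00750 0.59. With the second they were ATCG00470 0.45, ATCG00330 0.47, ATCG01010 0.23, ATCG00190 0.48, ATCG00180 0.39, ATCG00670 0.07 at 8 h and ATCG00330 0.51, ATCG00190 0.24, ATCG00180 0.71, ATCG00530 0.34, ATCG00660 0.61, ATCG00670 1.09, ATCG00750 0.50 at 16 h, and ATCG00560 0.82 for mutant basal against medial segments at 16 h. Leaving out each library in turn, the counts against 0 h ranged from 3 to 29 (wild-type basal 8 h), 5 to 11 (wild-type basal 16 h), 2 to 16 (wild-type medial 8 h), 14 to 23 (wild-type medial 16 h), 25 to 46 (ahk3 ahk4 basal 8 h), 35 to 63 (ahk3 ahk4 basal 16 h), 4 to 17 (ahk3 ahk4 medial 8 h). Between segments they ranged from 0 to 0 (wild-type 0 h), 1 to 10 (wild-type 8 h), 7 to 12 (wild-type 16 h), 0 to 1 (ahk3 ahk4 0 h), 1 to 14 (ahk3 ahk4 8 h), 31 to 52 (ahk3 ahk4 16 h). Between genotypes they ranged from 0 to 34 (basal 16 h), 0 to 5 (medial 8 h), 0 to 3 (medial 16 h). For interactions they ranged from 0 to 26 (genotype by time in basal 16 h), 0 to 1 (genotype by time in medial 8 h), 0 to 5 (genotype by time in medial 16 h), 0 to 1 (segment by time in wild-type 8 h), 2 to 6 (segment by time in wild-type 16 h), 0 to 6 (segment by time in ahk3 ahk4 8 h), 22 to 50 (segment by time in ahk3 ahk4 16 h). The summed plastid share moved by more than 1 SD, with all reads as the denominator, to wild-type basal 0 h 0.7238%, ahk3 ahk4 basal 0 h 0.7303%, wild-type basal 16 h 0.6396%, wild-type medial 0 h 0.9601%, ahk3 ahk4 medial 0 h 1.04%, ahk3 ahk4 medial 16 h 1.613%, and without ATCG00470 to wild-type basal 0 h 0.9077%, ahk3 ahk4 basal 0 h 1.15%, ahk3 ahk4 basal 8 h 0.3488%, wild-type basal 16 h 0.5651%, wild-type medial 0 h 0.975%, ahk3 ahk4 medial 0 h 1.041%, wild-type medial 16 h 0.9148%, ahk3 ahk4 medial 16 h 1.322%. In 0 of 20 comparisons was the correlation of deviations over 0.1 for every replicate number (range -0.216 to 0.265). The main model did not pair libraries by replicate number, and this check cannot exclude a shared sowing or batch. A replicate block moved wild-type basal 8 h 10 to 18 and ahk3 ahk4 8 h basal against medial 8 to 13. It moved segment by time in ahk3 ahk4 8 h 0 to 2 and changed no other count by over 1.5 times. DESeq2's size factors in edgeR and leaving organelle loci out of the totals moved no count by over 1.5 times. Counting depth limits loci such as ATCG00250 and ATCG01100, which held 0 or 1 read in some groups. The cause was not tested for any of these changes.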
